A study of Mus musculus with 2 samples.

Results

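The proteasome genes of the liver were compared between 2 oligonucleotide arrays, 1 for each of 2 diets, in a study of 12 mice with 6 on each diet. The mice are labelled as female, homozygous for a disrupted apolipoprotein E gene, on a C57BL/6J background, and 2 months old in the series' design text. Both diets were chow with 10% (w/w) oil for 4 weeks, plain olive oil for 1 array, here the olive oil array, and olive oil enriched in maslinic acid, a triterpene of olives, for the other, here the maslinic acid array. The members were taken by symbol, as genes beginning with Psma, Psmb, Psmc, Psmd, Psme, Psmf or Psmg and a digit, without Psmb8 and Psmb9. The rule found 46 genes among the 12393 that a probe set named alone, read by 83 probe sets. Of these, 44 reached a MAS5 signal of 80 on at least 1 array, the level at which a gene was counted as measured, among 5911 measured genes in all. MAS5 gives 1 background-adjusted brightness per probe set and array.

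The proteasome is the chamber in which cells cut up proteins tagged with ubiquitin. Its core particle is a barrel of stacked rings built from Psma (alpha) and Psmb (beta) subunits, with the cutting sites inside the beta rings. The regulatory particle caps the barrel, and its Psmc ATPases unfold substrates while its Psmd subunits recognise and strip ubiquitin. Psmg and some Psmd proteins are chaperones of assembly, Psme proteins are alternative caps that activate the core, and Psmf1 was described as an inhibitor. The transcription factor Nfe2l1 is known to raise transcription of these genes together when proteasome activity is low.

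Facts of the arrays bear on every value. Each diet has 1 array, so no difference between diets has a replicate check and no test, SE or p can be given. Apoe read 407.7 on the olive oil array and 7630 on the maslinic acid array, which goes against a knockout label shared by both, so the names of the arrays stand for their labels alone, and no value could be had without the doubtful array. All 10 hepatocyte markers on the arrays were measured, which checks the liver label. All 10 were lower on the maslinic acid array, their median log2 ratio being -0.18 and their summed signals 85408 and 76130. Endothelial markers were also lower, 5 of 5 measured with a median of -0.17, while 4 of 5 measured stellate markers were higher, with a median of 0.27. The summed signals of all 7 stellate markers were nearly equal, 3532.6 and 3583.7, and Col1a1 and Des were not measured. Of 10 Kupffer cell and macrophage markers 6 were higher, with sums of 10573.0 and 10572.2. Of the 50 brightest genes 47 were lower, with a median of -0.14. In whole liver, fewer cells of a type and less RNA per cell cannot be told apart.

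Proteasome genes differed little between the arrays. The 44 measured members had a median log2 ratio, maslinic acid over olive oil, of -0.02, where the median of all measured genes was -0.01. Of the members 25 lay below 0, or 56.8%, against 52% of all measured genes. The furthest apart was Psmd11, 1.30-fold lower on the maslinic acid array. At 1.5-fold, 0 members were higher, where 1.47% of all measured genes were, and 0 were lower, against 1.57%. Those shares are too low for 0 of 44 to set the members apart from other genes. At 1.1-fold, a size chosen after the values were seen, 5 members were higher and 9 lower, 11.4% and 20.5%, beside 21.8% and 23.4% of all measured genes.

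**Figure D1:**
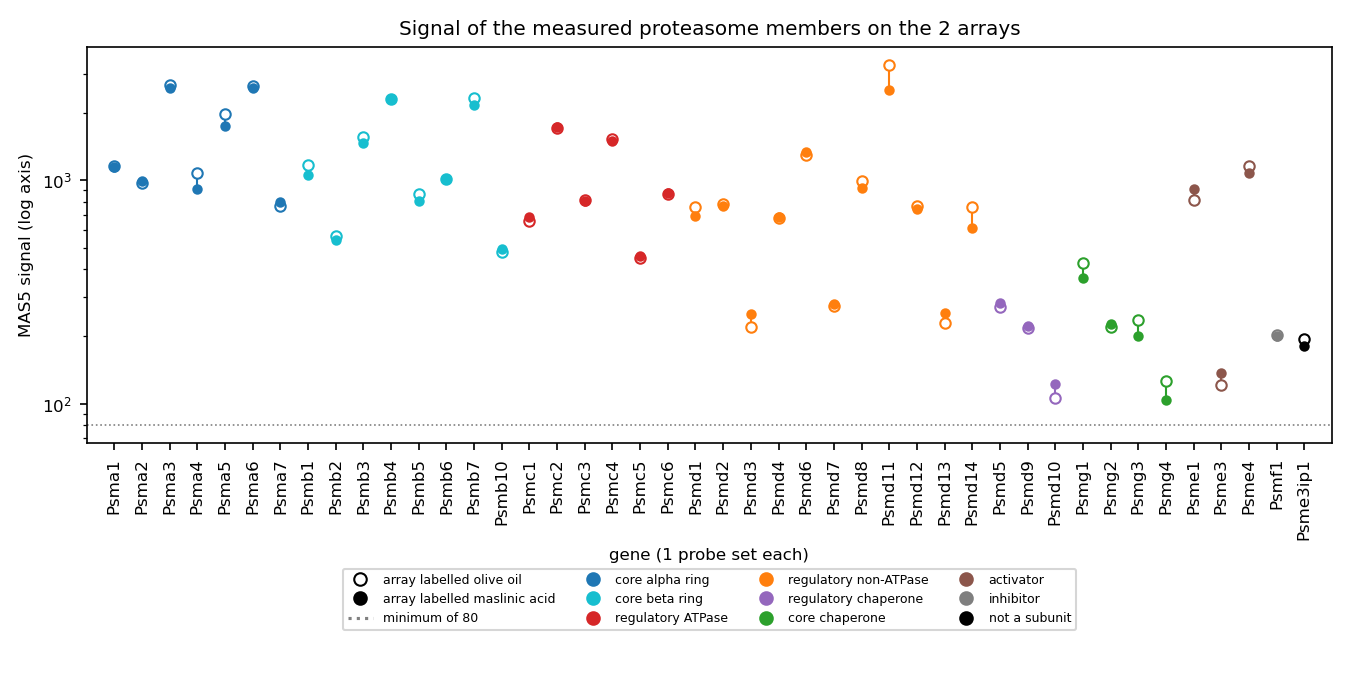
MAS5 signal on a log axis for the probe set used for each of the 44 measured members, open circles for the olive oil array and filled circles for the maslinic acid array, coloured by role. The circles of most genes nearly overlap, the widest gap being that of Psmd11 at 3280 and 2529, and all lie above the dotted minimum of 80.

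The members' ratios were also narrowly spread. Their SD over genes was 0.13 on the log2 scale, and 0.26 over all measured genes. Of the members 93.2% lay within 1.2-fold and 68.2% within 1.1-fold, where 81.0% and 54.8% of all measured genes did. Dim genes scatter more, and the members lay in bands of signal chosen after their values were seen. At a mean signal of 300 to 1000 the SD was 0.12 over 18 members and 0.23 over all genes of the band, and at 1000 to 3000 it was 0.11 over 14 members and 0.17 over the band. At 80 to 300 it was 0.16 over 12 members and 0.27 over the band. By share within 1.1-fold, the members were hardly apart at 80 to 300, with 6 of 12 beside 48.4% of the band. That share was 72.2% of members and 63.3% of the band at 300 to 1000, and 78.6% and 68.5% at 1000 to 3000. Within 1.2-fold the shares were 91.7% and 76.5% at 80 to 300. They were 94.4% and 87.8% at 300 to 1000, and 92.9% and 89.6% at 1000 to 3000. The repeat measurement at hand was further probe sets of the same gene, which share the hybridisation. In 16 members with several measured probe sets, 36 in all, the log2 ratios of a gene's probe sets had a pooled SD of 0.16. That pool holds dimmer probe sets than those used, so it is no like measure of the 0.13 between members. The range within a gene had a median of 0.14 and was at most 0.52. All probe sets of a gene had the same sign in 8 of these 16 members, and in 870 of the 1815 such genes on the arrays.

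**Figure D2:**
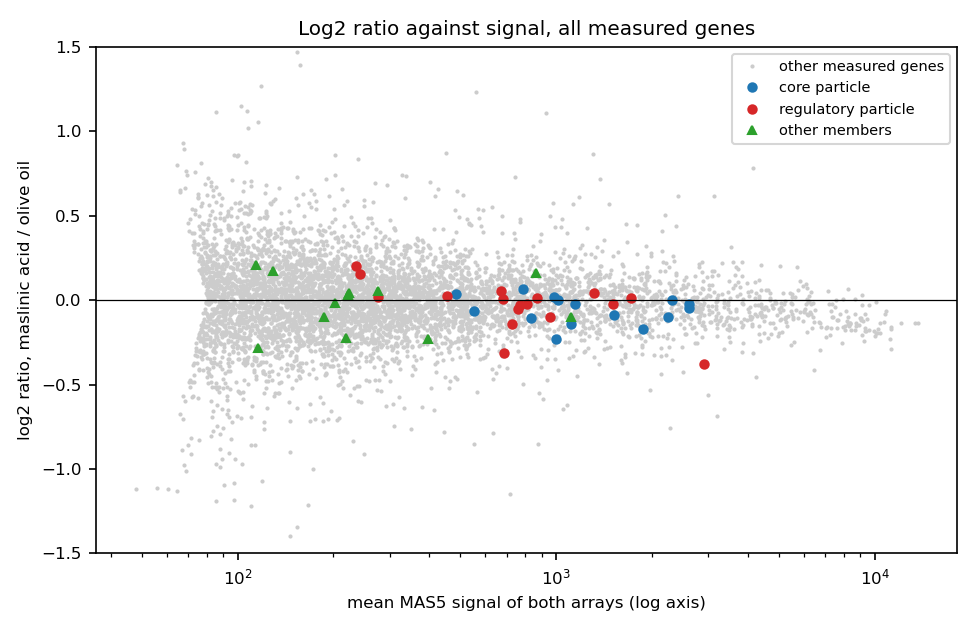
Log2 ratio of the 2 arrays (maslinic acid over olive oil) against the mean signal of both on a log axis, with 1 point per measured gene, proteasome members coloured. The members lie between -0.38 and 0.21 inside a cloud that narrows as signal grows, and 10 genes beyond 1.5 on the log2 axis are not drawn.

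In the alpha ring, which gates entry to the core, 5 of 7 measured members were lower on the maslinic acid array. This was 71.4%, beside 52% of all measured genes, and the median log2 ratio was -0.02. Psma4 stood furthest out, with signals of 1075.6 on the olive oil array and 917.1 on the other, 1.17-fold lower. Psma5 followed at 1980.7 and 1757.1, a log2 ratio of -0.17, and its other measured probe set gave -0.13 at 585.4 and 533.3. These were the only alpha subunits past 1.1-fold. Psma3 read 2658.2 and 2576.5, a log2 ratio of -0.05. Psma1 read 1158.0 and 1142.0, and Psma6 2632.4 and 2596.6, each at -0.02. With a loess trend of ratio on signal removed, Psma6 was at 0.02. The higher members were Psma2, at 976.1 and 988.3, and Psma7, at 768.8 and 803.5, with log2 ratios of 0.02 and 0.06. The other probe set of Psma7 gave -0.0037, so its sign was not repeated. Psma8, a subunit of the testis proteasome, was not measured, at 6.9 and 4.9.

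In the beta ring, 6 of 8 measured members were lower, with a median log2 ratio of -0.07. The 3 constitutive cutting subunits differed by small amounts, and Psmb6 was nearly level. Psmb5, which cuts after hydrophobic residues, read 865.9 on the olive oil array and 806.3 on the maslinic acid array, a log2 ratio of -0.10. Psmb7, which cuts after basic residues, read 2331.2 and 2172.0, also -0.10. Psmb6, which cuts after acidic residues, read 1014.0 and 1013.0, a log2 ratio of -0.0014. With a loess trend of ratio on signal removed it was 0.0011, so its sign depends on the processing. All 3 lay within 1.1-fold, less than the spread between probe sets. Psmb10, the inducible subunit that replaces Psmb7 in immune and cytokine-treated cells, read 479.6 and 492.9, a log2 ratio of 0.04. Among the structural beta subunits only Psmb1 passed 1.1-fold, at 1166.3 and 1056.9 with a log2 ratio of -0.14. Psmb2 lay at -0.06 with signals of 563.1 and 538.8, and Psmb3 at -0.09 with 1561.3 and 1470.7, though its other probe set gave 0.01 at 819.4 and 826.1. Psmb4 read 2307.1 and 2313.4, a log2 ratio of 0.0039, while the other gave -0.19 at 1794.6 and 1571.5.

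The inducible subunits left out by the rule, Psmb8 and Psmb9, replace Psmb5 and Psmb6. Psmb8 read 334.6 and 354.6, a log2 ratio of 0.08, and Psmb9 153.3 and 208.7, 1.36-fold higher on the maslinic acid array and further from 0 than any member. Of 10 lymphocyte and antigen presentation markers 6 were measured and 5 of them were higher, with summed signals over all 10 of 3089 and 4325, while Cd3e, Cd3g, Cd79a and Cd79b were under the minimum. Their part in the values of Psmb9 and Psmb10 was not tested.

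The promoters of the cutting subunits Psmb5 and Psmb6 are shown because proteasome genes are textbook targets of Nfe2l1 through antioxidant response elements. Sequences are RefSeq's on GRCm38.p6, 5′ to 3′ along the gene, from 250 bases before to 50 after a start of the gene. Psmb5 lies at chr14:54617946-54618245 on the minus strand and Psmb6 at chr11:70525107-70525406 on the plus strand. Capitals mark the letters TGACNNNGC, the core of that element, or CCAAT, each searched on both strands. The match begins at base -47 from the start in Psmb5 and at -9 in Psmb6, and neither window holds CCAAT. They were picked from the members holding TGACNNNGC for their cutting role.
Psmb5: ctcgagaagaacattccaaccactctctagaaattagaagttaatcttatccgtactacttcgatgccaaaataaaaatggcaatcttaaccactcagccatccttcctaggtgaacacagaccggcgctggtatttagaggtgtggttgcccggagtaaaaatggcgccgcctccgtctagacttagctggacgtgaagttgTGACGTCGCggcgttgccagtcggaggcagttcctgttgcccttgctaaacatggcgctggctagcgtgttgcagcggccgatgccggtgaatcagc
Psmb6: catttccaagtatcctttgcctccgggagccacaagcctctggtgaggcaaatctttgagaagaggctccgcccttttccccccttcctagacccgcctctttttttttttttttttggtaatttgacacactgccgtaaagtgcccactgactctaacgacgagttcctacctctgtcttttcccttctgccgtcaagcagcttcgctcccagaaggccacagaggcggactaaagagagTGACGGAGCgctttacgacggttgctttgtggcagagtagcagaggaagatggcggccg

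Promoters were in the table for 37 of the 44 measured members. TGACNNNGC was found in 6 of them (Psmb5, Psmb6, Psmc6, Psmd9, Psmd12 and Psme4), 16.2%, and in 14% of the 27025 genes of the table. CCAAT was found in 13, 35.1%, and in 41.1% of all genes, and the letters of TGACNNNGC and CCAAT did not overlap in any member's window. The median log2 ratio was -0.03 over the 6 members with TGACNNNGC and -0.02 over the 31 without it. For CCAAT it was 0.01 over the 13 members with it and -0.03 over the 24 without it. In 29 of the 37 members the start used was the end of the gene's annotated span, and in the others it lay elsewhere. A match is a description of letters and not a site.

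The ATPases of the regulatory particle were close to 0 with the probe sets used. All 6 were measured, 4 were higher and 2 lower, and their log2 ratios ran only from -0.02 to 0.06, with an SD of 0.03 and a median of 0.01. Psmc1 read 656.3 on the olive oil array and 682.0 on the maslinic acid array, the highest of the 6 ratios. Psmc3 read 819.1 and 805.3, and Psmc4 1524.7 and 1500.4, both -0.02. Psmc5 lay at 0.02, with 449.7 and 456.7. This evenness depends on the probe set. Psmc2 lay at 0.01, with signals of 1711.6 and 1726.5, but at 0.14 on another bright probe set, at 1175.7 and 1297.5. For Psmc6 the probe set used read 868.3 and 875.8, a log2 ratio of 0.01, another read 586.4 and 657.8, or 0.17, and a dim one read 84.7 and 122.5, or 0.53, the largest ratio of any measured proteasome probe set. With the mean of a gene's probe sets the SD of the ATPases was 0.10, and that of the beta ring 0.06.

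The other regulatory subunits varied more with the probe sets used. Of the 11 measured Psmd subunits 6 were lower and 5 higher on the maslinic acid array, with a median log2 ratio of -0.03 and an SD of 0.18. With the mean of a gene's probe sets their SD was 0.13, nearer to the 0.10 of the ATPases. Psmd11, a scaffold of the lid, the part of the particle that handles ubiquitin chains, read 3280 and 2529, the lowest ratio of all members at -0.38, and 4.47% of measured genes lay lower. Its 4 measured probe sets disagreed. Beside -0.38 they gave -0.20 at 1358.7 and 1185.4, -0.04 at 462.9 and 450.6, and 0.15 at 721.2 and 799.2, and their mean was -0.12. Psmd14, the enzyme that cuts ubiquitin chains off the substrate, read 760.6 and 612.7, 1.24-fold lower, with no second probe set to repeat it. Psmd1, the other member past 1.1-fold on this side, is a scaffold of the base and read 762.0 and 690.2, a log2 ratio of -0.14.

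The promoter of Psmd11 is shown as that of the member with the lowest ratio. It lies at chr11:80428365-80428664 on the plus strand and holds neither TGACNNNGC nor CCAAT, so no letters are in capitals.
Psmd11: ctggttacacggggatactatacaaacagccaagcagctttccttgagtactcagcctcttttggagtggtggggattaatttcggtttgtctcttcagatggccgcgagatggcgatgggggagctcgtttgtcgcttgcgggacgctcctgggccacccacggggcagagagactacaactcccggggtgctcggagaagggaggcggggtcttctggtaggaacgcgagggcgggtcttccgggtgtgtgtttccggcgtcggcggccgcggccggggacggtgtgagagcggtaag

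On the higher side were the lid subunits Psmd3, at 219.3 and 252.1 or 1.15-fold, and Psmd13, at 228.7 and 254.6 with a log2 ratio of 0.15. The second probe set of Psmd13 read 127.2 and 127.4, a log2 ratio of 0.0023, so that difference was not repeated. The ubiquitin receptor Psmd4 read 678.9 and 682.9, and the scaffold Psmd2, which receives shuttled substrates, 779.4 and 763.6, with log2 ratios of 0.01 and -0.03. Psmd6 lay at 0.04 and its other probe set at 0.06. Psmd7 was at 0.02, Psmd8 at -0.10 and Psmd12 at -0.05. The regulatory particle was split into base (the 6 ATPases, Psmd1, Psmd2 and Psmd4) and lid (the other 8) after the values were seen. With the probe sets used, the SD of the log2 ratios was 0.06 in the base and 0.21 in the lid, which holds Psmd11. The medians were 0.01 and -0.02.

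**Figure D3:**
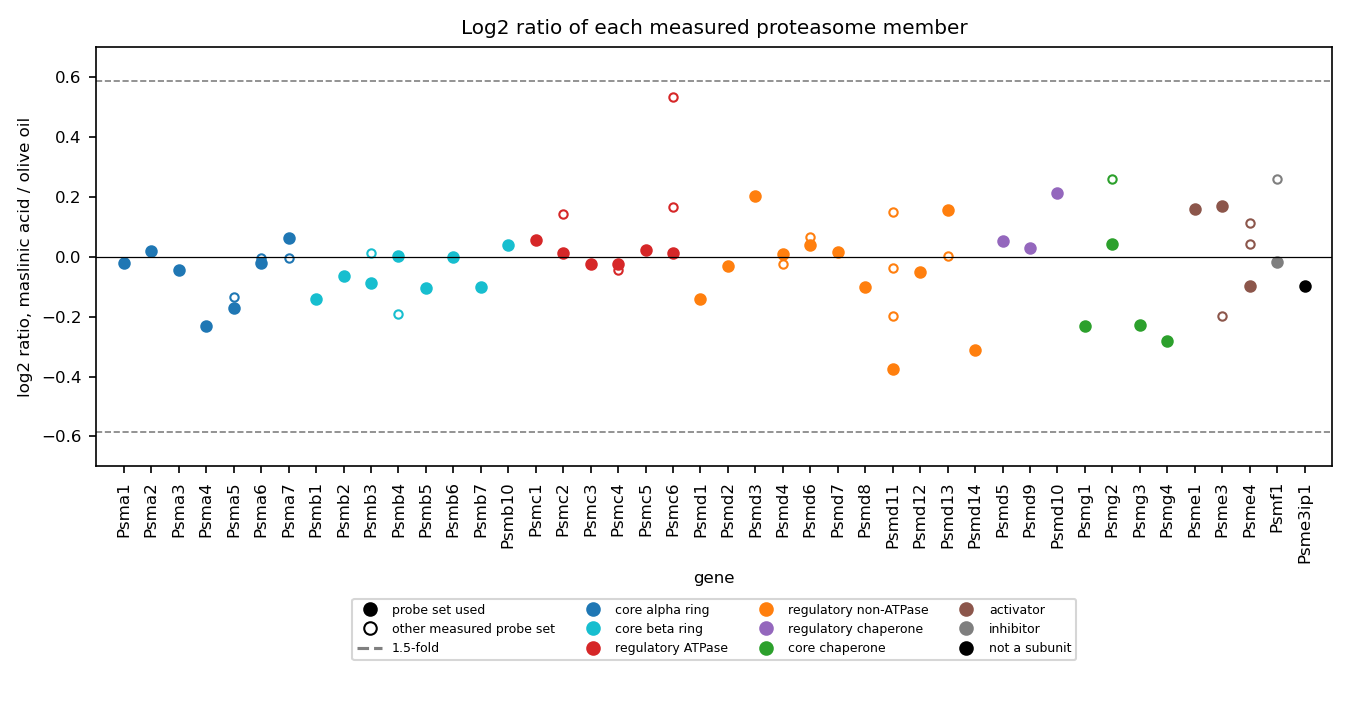
Log2 ratio (maslinic acid over olive oil) for each measured member, filled for the probe set used and open for its other measured probe sets, with dashed lines at 1.5-fold. The Psmc ATPases used lie within -0.02 to 0.06, the Psmd subunits range from -0.38 to 0.20, and 3 of the 4 Psmg chaperones lie below -0.2.

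Set against each other, the core particle lay slightly lower than the regulatory particle. Of 15 measured core subunits 11 were lower on the maslinic acid array, or 73.3%, beside 52% of all measured genes. Their median log2 ratio was -0.05, with a range of -0.23 to 0.06. Of 17 regulatory subunits 8 were lower, or 47.1%, with a median of 0.01 and a range of -0.38 to 0.20. The medians differed by -0.05, core minus regulatory, and the means by -0.03. The regulatory median and mean, 0.01 and -0.03, had opposite signs, Psmd11 and Psmd14 being its lowest members. The ranges overlap, and with 1 array per diet the difference has no error. With a loess trend of ratio on signal removed, the difference of medians was -0.02. Psmb6 and Psma6 then turned from -0.0014 and -0.02 to 0.0011 and 0.02, so fewer than 11 core subunits were lower. Of all measured genes 50.9% were lower with that trend removed. Hepatocyte and endothelial markers and the brightest genes were lower on the same array, and their part in the core's values was not tested.

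**Figure D4:**
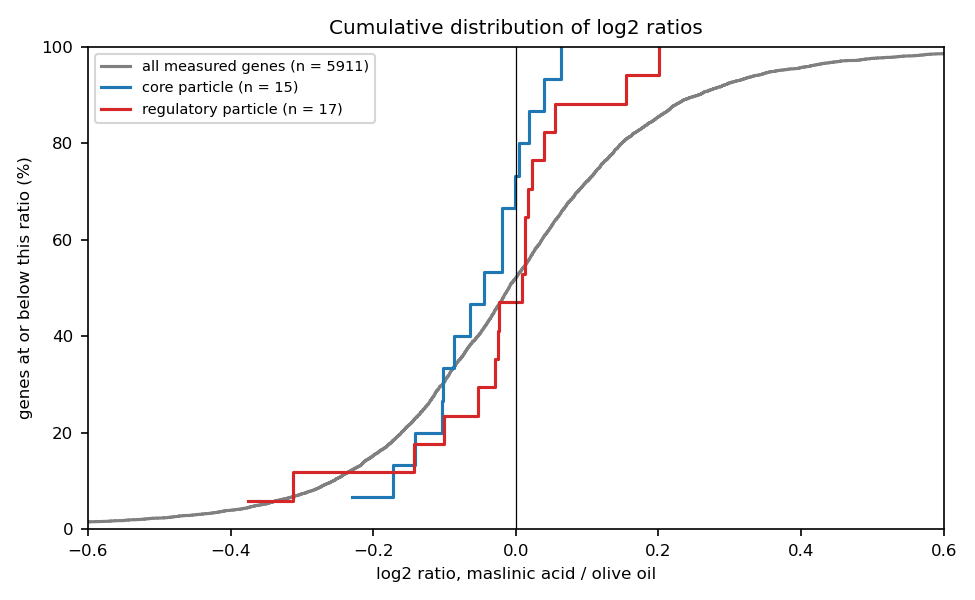
Share of genes at or below each log2 ratio (maslinic acid over olive oil) for all 5911 measured genes in grey, the 15 core subunits in blue and the 17 regulatory subunits in red. Both particles rise more steeply than all genes, and the core curve crosses 0 with 11 of 15 subunits below it, the regulatory curve with 8 of 17.

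**Figure D5:**
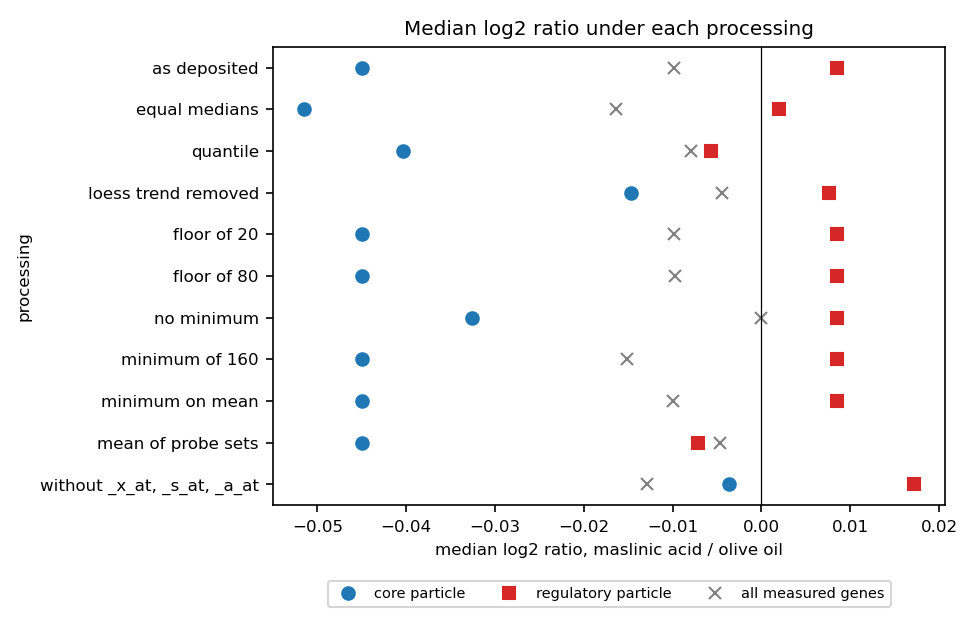
Median log2 ratio (maslinic acid over olive oil) of the core subunits, the regulatory subunits and all measured genes under the processing used, at the top, and under 10 others. The core median lies left of the regulatory one in every row and ranges from -0.05 to -0.0037, while the regulatory median lies on both sides of 0.

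Assembly chaperones of the core had the lowest median of the 8 roles. Psmg1, which with Psmg2 starts the alpha ring, read 428.1 on the olive oil array and 364.7 on the maslinic acid array, a log2 ratio of -0.23. Psmg3 and Psmg4 pair with each other in the same process. Psmg3 read 236.0 and 201.7, also -0.23, and Psmg4 126.9 and 104.3, -0.28. Psmg2 did not share this: it read 220.8 and 227.6, a log2 ratio of 0.04, and 168.0 and 200.9 with its other probe set, 0.26. The median over the 4 was -0.23, and 3 were past 1.1-fold lower, where 23.4% of all measured genes were. Psmg2, Psmg3 and Psmg4 lie at a mean signal of 80 to 300, where 48.4% of all genes were within 1.1-fold. Psmg1, Psmg3 and Psmg4 were each measured by 1 probe set, so their ratios have no repeat. In size each exceeds the members' SD of 0.16 between probe sets of a gene and is close to that of 0.23 over all genes. Both SDs come from probe sets that share the hybridisation. They hold no error between arrays or mice, so they cannot show that these ratios stand out.

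Of the chaperones of the regulatory particle 3 of 3 were higher, with a median log2 ratio of 0.05, where 2828 of 5911 measured genes were higher. Within 1.1-fold lay 2 of them, Psmd5 and Psmd9, so the count gives no clear direction. Psmd10, known as gankyrin and as an oncoprotein of liver cancer, read 105.9 and 122.6, the highest ratio of all members at 0.21. Psmd5 read 271.7 and 281.7, a log2 ratio of 0.05, and Psmd9 219.2 and 223.8, or 0.03. Psmd10 is dim, and 86.6% of measured genes had a lower ratio. Its promoter, at chrX:140956662-140956961 on the minus strand, is shown as that of the highest member. CCAAT or its reverse complement is in capitals at bases -230, -47 and -24 from the start. Psmd14, Psma3, Psmd4 and Psme3ip1 also hold 3 such matches, with log2 ratios of -0.31, -0.05, 0.01 and -0.10.
Psmd10: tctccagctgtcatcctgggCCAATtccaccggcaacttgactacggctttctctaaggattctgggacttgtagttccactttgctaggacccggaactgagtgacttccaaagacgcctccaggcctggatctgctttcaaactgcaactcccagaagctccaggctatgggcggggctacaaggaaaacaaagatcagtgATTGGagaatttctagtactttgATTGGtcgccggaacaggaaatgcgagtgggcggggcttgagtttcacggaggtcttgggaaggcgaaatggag

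Among the alternative caps, Psme1, part of the interferon-inducible activator, read 816.7 and 912.6, 1.12-fold higher on the maslinic acid array. Psme3, the activator of the nucleus, gave opposite answers, 121.8 and 137.1 with a log2 ratio of 0.17 on 1 probe set and 132.0 and 115.1 with -0.20 on the other. Psme4, a large nuclear activator that acts on histones, read 1155.5 and 1079.3, a log2 ratio of -0.10, and its other probe sets gave 0.04 and 0.11. Psmf1 read 204.0 and 201.7, a log2 ratio of -0.02, and 75.9 and 90.9 on a dimmer probe set, 0.26. A probe set that names Psme2 with another gene was left out. Psme1 was read by 1 probe set, and in Psme3, Psme4 and Psmf1 the probe sets differed in sign.

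Symbols alone brought in 2 genes that are no part of the proteasome. Psme3ip1, a partner of Psme3, read 193.8 and 181.0, a log2 ratio of -0.10, and was kept among the 44. Psmc3ip, a factor of meiotic recombination, read 10.0 and 10.3 and was not measured. The member nearest to the minimum of 80 from outside was Psmc3ip. The nearest inside were Psmd10, at 105.9 and 122.6, and Psmg4, at 126.9 and 104.3. At a minimum of 160, 41 members were left, without Psmd10, Psme3 and Psmg4. Among further probe sets of the members, a Psma6 one just under the minimum read 79.9 and 50.4.

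Genes around the proteasome were spread less than all genes by SD, and more than the members. Of 36 listed partners, ubiquitin genes and regulators, 25 were measured, with a median log2 ratio of -0.05. Of these, 16 were lower and 9 higher, or 64.0% lower beside 52% of all measured genes. Their SD over genes was 0.17, where that of the members was 0.13 and that of all measured genes 0.26. Within 1.2-fold lay 84.0% of the 25, beside 81.0% of all measured genes, and within 1.1-fold 64.0% beside 54.8%. At 1.5-fold 0 were apart, where 1.47% of all were higher and 1.57% lower, shares too low for 0 of 25 to be telling. Nfe2l1 read 226.7 and 218.2, a log2 ratio of -0.06, and Nfe2l2, the related factor of the antioxidant response, 763.6 and 727.9, or -0.07. In the list of segregase and regulators 8 of 9 were lower, led by Vcp, the ATPase that extracts ubiquitinated proteins, at 1713.0 and 1503.9 or -0.19, though its dimmer probe set gave 0.17 at 93.1 and 105.1. The other probe set of Ufd1, a cofactor of Vcp, also differed in sign, 0.05 beside -0.11. Keap1, which holds Nfe2l2 in check, lay at 0.15. Pomp, which matures the core, read 1348.4 and 1390.7, a log2 ratio of 0.04. Larger ratios came from Ubqln4, a shuttle, at 0.36, Usp14, a deubiquitinase of the cap, at 0.33, Ecpas, a clamp between core and cap, at -0.38, and Sem1, the smallest lid subunit, at 0.28. The other measured probe sets of Usp14 gave -0.20 and 0.02 and that of Sem1 -0.13, so those 2 differences were not repeated.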

How the data were processed

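Total liver RNA was hybridised as biotin-labelled cRNA to Affymetrix arrays, 1 per diet, per the labels' protocols. The deposited values are intensity signals on a linear scale for which the authors used MAS5, per the submitters' processing notes. Its version, its settings and any pooling of RNA were not given in the sources used here. On each array the 2% trimmed mean was 200.1, so no further scaling was applied.

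Control probe sets were left out. A gene was read by its probe set of highest mean signal among those naming it alone, and measured at a signal of 80 on 1 array. Signals under 40 were set to 40 before the log2 ratio, which touched none of the members' probe sets used. Gene names come from the platform annotation, and all 46 members were found by Entrez number in the table of GRCm38.p6 genes. Members, lists, motifs and roles were chosen with earlier results of these data known. Signals on both arrays were to be given for the 6 highest and 6 lowest members, the cutting subunits, and members whose probe sets differ in sign by at least 0.3. Precision is limited by the number of arrays. Detection calls were not used. Steps were tested on simulated data. Python 3.11.15, pandas 2.3.3 and statsmodels 0.14.6 were used.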

Additional observations from a re-analysis of the deposited data

How the results depend on the processing

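No paired analysis was possible because there is 1 array per diet, and for the same reason no array could be left out. Alternatives were equal medians, quantile scaling, removal of a loess trend, floors of 20 and 80, a minimum of 160, of 80 on the mean, or none, the mean of all measured probe sets, leaving out probe sets ending in _x_at, _s_at or _a_at, counting Psmd5, Psmd9 and Psmd10 as regulatory, and a core without Psmb10, which gave the lowest core median and difference. Leaving out Psmd11 or Psme3ip1 was added after seeing the data. The median of the members ran from -0.03 to -0.0033, that of the core from -0.05 to -0.0037, and the core minus regulatory difference from -0.06 to -0.02, negative throughout. The core and that difference were nearest to 0 without the probe sets ending in _x_at, _s_at or _a_at, where 11 core and 13 regulatory subunits were left, and the difference was -0.02 there and with the loess trend removed. The regulatory median turned negative with quantile scaling (-0.0057) and with the mean of probe sets (-0.0072), and reached 0.02 at most. No alternative put a member past 1.5-fold. The floors and minimums could not change a member's ratio, and all 217 single ratios under them equalled the reported ones. Of the 211 ratios of single members under another scaling or choice of probe set, 7 moved by at least the members' SD between probe sets of a gene (0.16) and 2 by at least that of all genes (0.23). As the mean of its probe sets, Psmd11 was at -0.12, Psmc6 at 0.24 and Psme3 at -0.01. Without the endings named, Psmd11 was at -0.20, Psmc6 at 0.53, Psmb4 at -0.19 and Psmg2 at 0.26. In all, 16 ratios, from 11 genes, turned sign, of which that of Psme3 was past 1.1-fold before.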
